A study of Homo sapiens with 2 samples.

Results

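The mitochondrial transcripts of respiratory complexes III and IV and of the ATP synthase, complex V, held 7 listed ac4C peaks on 5 genes. They were taken from the deposited acRIP-seq peak table, which lists 647 peaks on 490 genes (counted by Ensembl identifier), as the rows on chromosome MT whose gene name starts with MT-CO or MT-ATP or is MT-CYB. That rule can take 6 genes, and MT-CO2 had 0 listed peaks. In acRIP-seq, RNA fragments that carry N4-acetylcytidine (ac4C) are captured by an antibody and sequenced alongside input RNA, and peaks mark where captured reads exceed those of the input. The table compares 1 library of unedited A549 cells (WT) with 1 library of A549 cells in which NAT10, the enzyme that writes ac4C, was knocked out (NAT10-KO). A549 is a human lung cancer cell line, and the knockout line is a single-cell clone made with CRISPR/Cas9 and 2 guide RNAs, so that the knockout and the clone cannot be told apart. NAT10 itself was not analysed here.

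The mitochondrial genome is copied into long RNAs that span many genes, and most mRNAs are released when the tRNAs lying between them are cut out. Cytochrome b, encoded by MT-CYB, is the mitochondrially encoded subunit of complex III, which passes electrons from ubiquinol to cytochrome c. MT-CO1, MT-CO2 and MT-CO3 encode the core subunits of complex IV, the cytochrome c oxidase that reduces oxygen. MT-ATP6 encodes the subunit of the ATP synthase that forms part of its proton channel, and MT-ATP8 encodes a small membrane subunit of the same complex. MT-ATP8 and MT-ATP6 share 1 mRNA on which their reading frames overlap.

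Each peak comes with its fold enrichment over the input, a log2 fold change between the libraries and a p-value of that difference. It holds 1 value per peak and none for a single library, so a spread between replicates was not measured. The header does not state the direction of the fold change, which was read as NAT10-KO over WT. The reason is that each of the 107 genes in the study's supplementary list of reduced genes has a peak under -1. The caption of that list speaks of reduced expression, whereas the study's text gives 107 as the number of genes with reduced modification. A peak was called lower or higher by the sign of the log2 fold change where the deposited p of the difference was under 0.05. That p compares the reads of these 2 libraries and not the conditions. Counts of reads per peak were not analysed here, which leaves the depth unknown, and a change of all mitochondrial RNA in the pull-down relative to other RNA cannot be told apart from a change at these genes. Whether the fold change is corrected for the input is not given in the sources used here. A change in the amount of an mRNA therefore cannot be told apart from a change of ac4C on it.

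All 7 peaks had a log2 fold change under 0 and were called lower, and 0 were called higher. Over the whole table, 23.3% of peaks were lower and 30.3% were higher by the same rule, and 46.7% had a log2 fold change under 0 at any p. The changes were small, from -0.45 to -0.05 with a median of -0.25 (SD over the 7 peaks 0.16), against a median of 0.05 over all listed peaks. Without the MT-ATP8 and MT-ATP6 peaks, which overlap each other, the median of the other 5 was -0.10. In linear terms the NAT10-KO value was 73.5% of the WT value at the lowest peak and 96.8% at the highest. None of the 7 had an absolute log2 fold change over 1, a size that 234 of the 647 listed peaks passed.

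MT-CYB (ENSG00000198727) had 2 listed peaks. The first, from 14747 to 15244 on the plus strand of the mitochondrial chromosome (hg38), began on the first base of the gene and covered 43.6% of it. It was enriched 2.05-fold over input, with a log2 fold change of -0.28 and a log10 p of the difference of -50.5. The other peak lay 262 bases downstream, from 15507 to 15829, with an enrichment of 1.17-fold. Its log2 fold change of -0.05 was the smallest of the 7 in size, with a difference p of 0.025 and an FDR of 0.049. The upstream peak of cytochrome b was both the more enriched and the more reduced of the pair. Of the 7 peaks, 3 started on the first base of their gene and 2 ended on its last base. Whether peaks were cut at annotated gene ends is not given in the sources used here. Such an edge is therefore not shown to be where ac4C starts or ends.

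MT-CO1 (ENSG00000198804), which encodes the catalytic subunit of complex IV, also had 2 listed peaks. The peak from 5904 to 6111 began on the first base of the gene, with an enrichment of 1.87-fold, a log2 fold change of -0.06 and a difference p of 0.010. The peak from 6704 to 7119, which lies 592 bases further on, had an enrichment of 1.59-fold, a log2 fold change of -0.10 and a log10 p of the difference of -7.06. Both peaks of MT-CO1 stayed within 6.60% of the WT value. In contrast to MT-CYB, the less enriched peak was the more reduced.

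MT-CO3 (ENSG00000198938), the complex IV subunit whose gene follows that of MT-ATP6, had 1 listed peak, from 9352 to 9584. It covered 29.7% of the gene, with an enrichment of 1.33-fold and a log2 fold change of -0.25 at a log10 p of the difference of -48.2. MT-CO2 lies from 7586 to 8269, between the genes of the tRNAs TRND and TRNK in the RefSeq annotation. The stretch of 1305 bases from the end of the second MT-CO1 peak to the start of the MT-ATP8 peak, which contains this gene, held no listed peak. A gene without a listed peak is not shown to lack ac4C, since the threshold for listing a peak and the reads behind it were not used here.

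The largest decreases of the set were on the mRNA of complex V. MT-ATP8 (ENSG00000228253) had 1 peak, from 8425 to 8572, which ended on the last base of the gene and was enriched 1.30-fold. Its log2 fold change of -0.45 was the lowest of the 7, with a log10 p of the difference of -137. The peak of MT-ATP6 (ENSG00000198899) ran from 8527 to 9207 and covered 100% of the gene. It had the highest enrichment of the set, 2.53-fold, and a log2 fold change of -0.36 with a log10 p of the difference of -248. The MT-ATP8 and MT-ATP6 peaks overlap by 46 bases, so they share reads and are not separate measurements of that stretch.

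**Figure D1:**
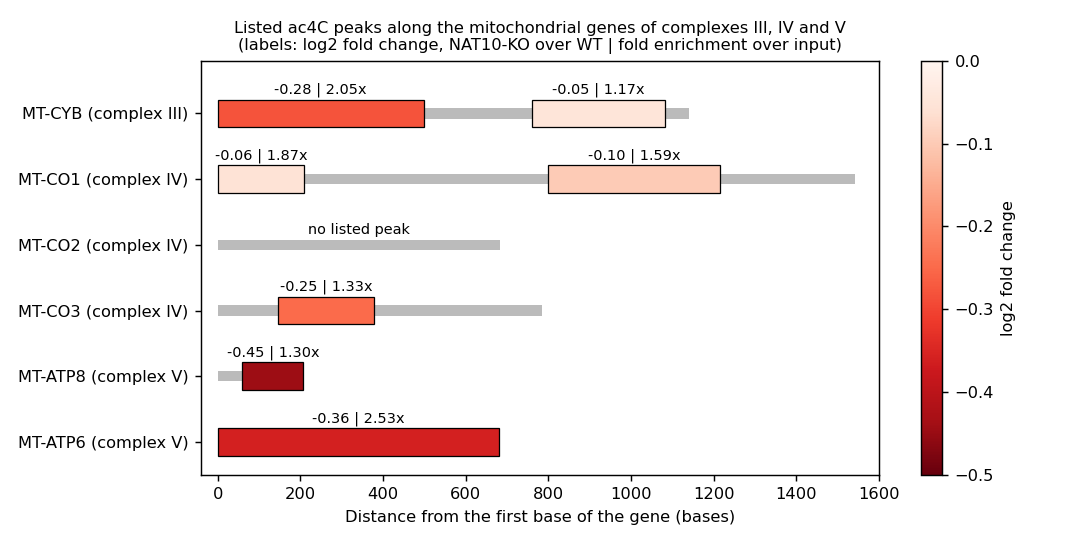
Listed peaks drawn as boxes on the 6 genes (grey bars), with the distance from the first base of each gene in bases on the x axis and the log2 fold change (NAT10-KO over WT) as the colour. The label above each box gives its log2 fold change and its fold enrichment over input. MT-ATP8 and MT-ATP6 hold the lowest values, both MT-CO1 peaks and the downstream MT-CYB peak lie near 0, and MT-CO2 has no listed peak.

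By size, the 7 peaks fell on either side of a gap of 0.15 (log2). That gap is the largest spacing among these same values, and complex I peaks at -0.246, -0.23, -0.211 and -0.13 lie inside it. A total of 4 peaks, those of MT-ATP8, MT-ATP6 and MT-CO3 and the upstream one of MT-CYB, were between -0.45 and -0.25. The other 3, both of MT-CO1 and the downstream one of MT-CYB, were above -0.1. With a size of at least 0.2 added to the call, 4 of the 7 peaks were lower, against 22.6% of all listed peaks. By that call 8 of the 13 other peaks on the mitochondrial chromosome were lower, among them 7 of the 10 on complex I genes. MT-ATP8, MT-ATP6 and MT-CO3 are neighbours with no tRNA gene between them, the annotated end of MT-ATP6 and start of MT-CO3 sharing base 9207. Their 3 peaks had a median log2 fold change of -0.36, which is the value of MT-ATP6, whose peak overlaps that of MT-ATP8. MT-ND4L and MT-ND4, complex I genes whose annotations also overlap, had peaks at -0.211 and -0.13. A link between this arrangement of genes and the change was not tested. No error was measured for any of these values, so the order of the genes is a description of this pair of libraries.

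The 13 other mitochondrial peaks lay on 9 genes, of which 7 encode subunits of complex I and 2 are the rRNAs MT-RNR1 and MT-RNR2. A total of 10 of the 13 were lower and 3 were higher, with a median log2 fold change of -0.23. The medians of both sets differed by 0.02, the complex III, IV and V peaks being the lower (-0.25 against -0.23). Without the overlapping MT-ATP8 and MT-ATP6 peaks the difference turned to 0.13, with these transcripts the higher. Of the other mitochondrial peaks, 8 had a log2 fold change within the range of the 7, 2 were below it and 3 above it. The 2 below were those of MT-ND6 (-0.60), a complex I subunit encoded on the opposite strand, and MT-ND2 (-0.48). The 3 above 0 were MT-ND3 (0.14), MT-RNR1 (0.10) and the middle peak of MT-ND5 (0.04), for which the FDR of the difference was 0.076. No test over peaks was made, because peaks of the same libraries are not replicates.

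**Figure D2:**
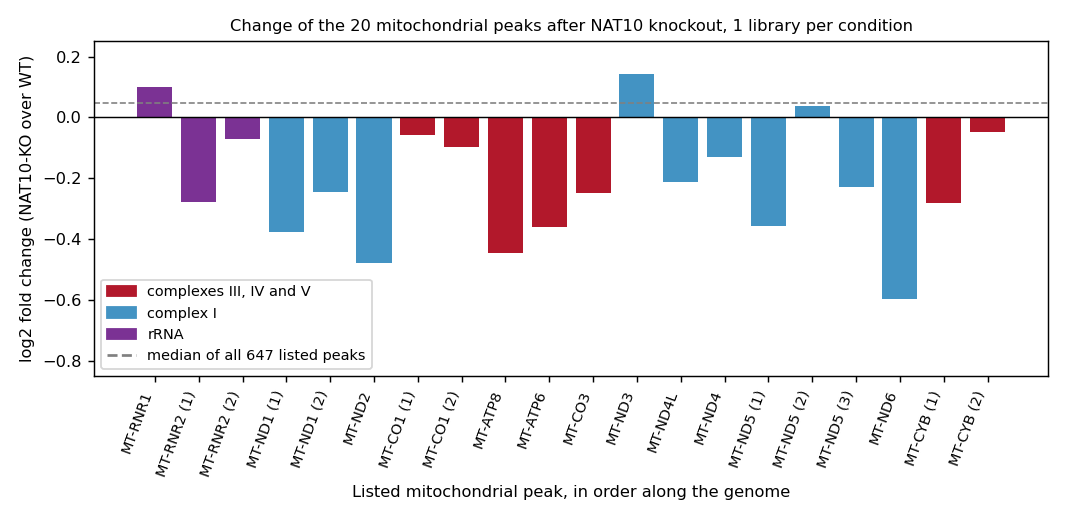
Log2 fold change (NAT10-KO over WT) of each of the 20 mitochondrial peaks, in their order along the genome and coloured by complex, with 1 library per condition and no error bars. The dashed line marks the median of all 647 listed peaks, 0.05. All 7 bars of complexes III, IV and V are below 0, as are 10 of the other 13.

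Relative to the median of the other mitochondrial peaks, MT-ATP8 was lower by a difference of -0.22 and MT-ATP6 by -0.13 (log2). MT-CO3 differed from it by -0.02 and the upstream MT-CYB peak by -0.05. Both MT-CO1 peaks, at 0.17 and 0.13, and the downstream MT-CYB peak, at 0.18, lay above it. Single peaks of the other mitochondrial genes lay below both complex V peaks (MT-ND6 and MT-ND2) and above both MT-CO1 peaks (MT-ND3, MT-RNR1 and the middle one of MT-ND5).

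Enrichment over input was weak at these genes. It ran from 1.17-fold to 2.53-fold with a median of 1.59, against 2.24 over all listed peaks, and 6 of the 7 peaks were under that overall median. The complex I peaks had a median of 1.99 and reached 6.66-fold at MT-ND2, and 6 of those 10 were also under the overall median. MT-RNR1, the small ribosomal RNA of the mitochondrion, had the highest mitochondrial enrichment, 55.2-fold, and the downstream MT-ND1 peak the lowest, 1.16-fold. The deposited p-values of enrichment were extreme, with a log10 p from -6780 at MT-ATP6 to -66.2 at the downstream MT-CYB peak. Among the 627 peaks outside the mitochondrial chromosome, 69 had a log10 p under that weakest value.

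**Figure D3:**
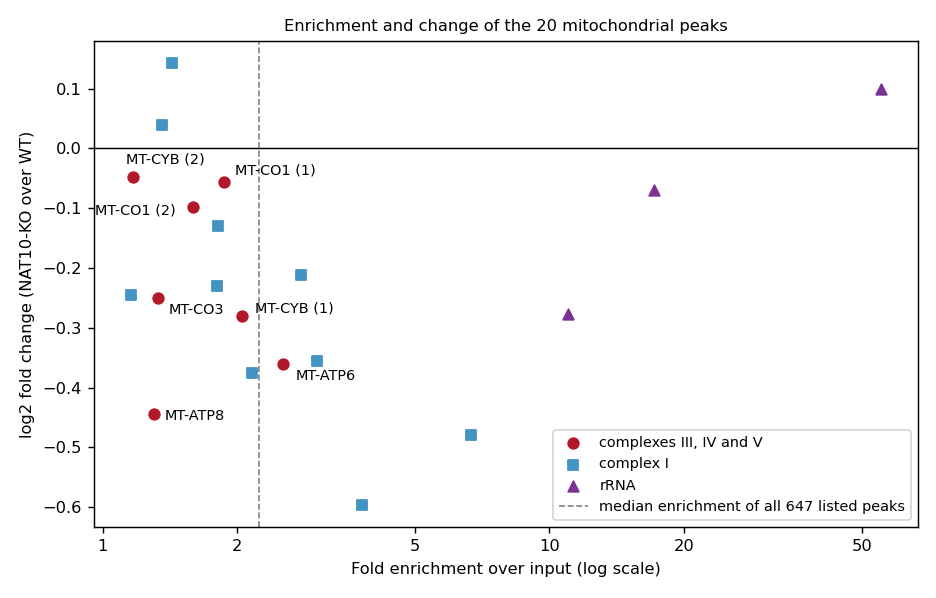
Fold enrichment over input (x axis, log scale) against log2 fold change (NAT10-KO over WT, y axis) for the 20 mitochondrial peaks, with those of complexes III, IV and V named. The dashed line marks the median enrichment of all 647 listed peaks, 2.24, and 6 of the 7 named peaks lie to its left.

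Across the 7 peaks, enrichment and log2 fold change had a Spearman's rho of -0.32, and across the 10 complex I peaks it was -0.70. The peaks share their libraries, and the point farthest from any such order among the 7 was MT-ATP8, which combined the lowest log2 fold change with an enrichment of 1.30-fold. The length of the 7 peaks, from 148 to 681 bases, had a rho of -0.07 with the log2 fold change. Of the 5 mitochondrial genes with more than 1 listed peak, 4 had the highest enrichment at the upstream peak, MT-CYB and MT-CO1 among them.

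The p-values of the difference were small at small changes. All 20 mitochondrial peaks had a difference p under 0.05, against 52.2% of the peaks elsewhere. Of the 327 peaks elsewhere with such a p, 65 (19.9%) had a change no larger in size than that of MT-ATP8, and the smallest was 0.06 (log2), more than at 2 of the 7 peaks. The 134 lower peaks outside the mitochondrial chromosome had a median log2 fold change of -1.18. Among CDS peaks outside the mitochondrial chromosome, the region to which all 7 peaks belong, 84 of 256 (32.8%) were lower and the median was -0.11, and 4 of the 7 mitochondrial peaks lay below that median.

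**Figure D4:**
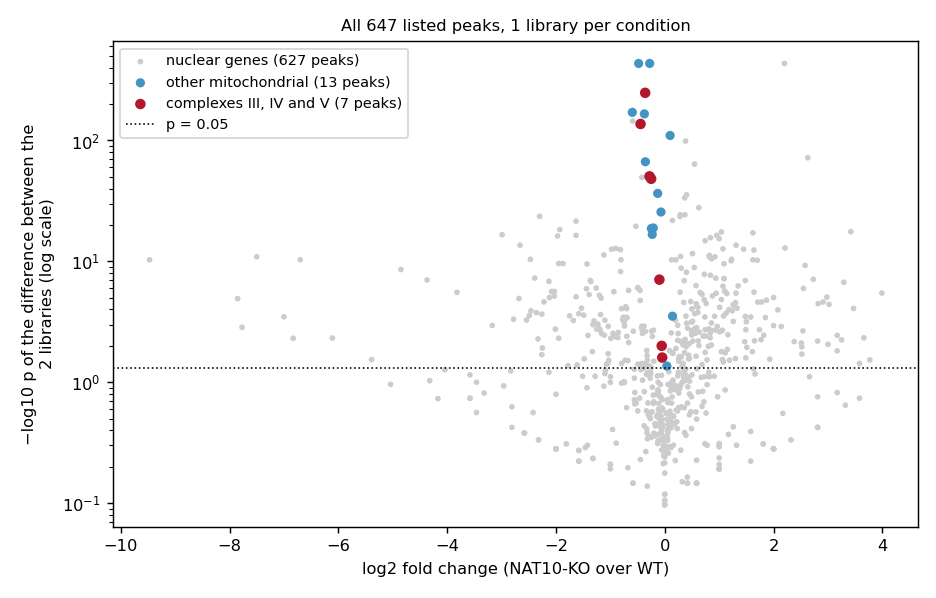
Log2 fold change (NAT10-KO over WT) of all 647 listed peaks against −log10 of the deposited p of the difference (log scale), with the 7 peaks of complexes III, IV and V in red and the 13 other mitochondrial peaks in blue. The dotted line marks the threshold of 0.05 on the p of the difference. The 7 peaks stand in a narrow column between -0.45 and -0.05, up to a −log10 p of 248 at MT-ATP6.

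Listed peaks of nuclear genes that work with these complexes were few. Of 15 symbols of complex III subunits and assembly factors, UQCRB, a structural subunit, had 1 peak, with an enrichment of 3.63-fold and a log2 fold change of 0.75 at a log10 p of the difference of -2.41. Of 38 symbols for complex IV, LRPPRC, which keeps mitochondrial mRNAs stable, had 2 peaks, one with a log2 fold change of 1.13 at a log10 p of the difference of -3.74 and one with 0.05 at -0.39. Of 40 symbols for complex V, older names included, USMG5, a small subunit of the ATP synthase, had 1 peak with a log2 fold change of 0.84 at a log10 p of the difference of -2.56. Of 100 symbols for mitochondrial gene expression, ribosomal proteins included, GRSF1, an RNA-binding protein of the mitochondrial RNA granules, had 1 peak with a log2 fold change of 0 at a log10 p of the difference of -0.24. In all, 3 of these 5 nuclear peaks were called higher and none lower, and 30.3% of all listed peaks were higher. CYCS, which encodes the electron carrier cytochrome c and was on none of these lists, was looked up after other values had been seen, and its 3'UTR peak had a log2 fold change of -0.31 at a log10 p of the difference of -0.67.

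Copies of mitochondrial genes in the nuclear genome were listed as well. MTATP6P1, a copy of MT-ATP6 of the same annotated length of 681 bases, had 1 peak on chromosome 1 from 633873 to 634139, which spans bases 178 to 444 of the copy. Its enrichment of 4.56-fold was above that of MT-ATP6, and its log2 fold change of -0.42 was between those of MT-ATP6 and MT-ATP8, with a log10 p of the difference of -49.5. Copies of this kind closely resemble the mitochondrial gene, and how reads that match both were assigned is not given in the sources used here, so the division of reads between MT-ATP6 and MTATP6P1 is uncertain. The neighbouring copies MTCO1P12, MTCO2P12, MTATP8P1 and MTCO3P12 had 0 listed peaks. The other listed copies were MTND2P28, with 2 peaks at -0.25 (difference p 0.048) and -0.32 (difference p 0.46), and MTRNR2L12, with 1 peak at 0.39 (difference p 0.43). Of these, only the MTND2P28 peak at -0.25 was called.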

How the data were processed

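The acRIP-seq libraries, 1 of WT and 1 of NAT10-KO A549 cells, were assigned to their conditions from the sample titles. These name a control and a NAT10 knockout, and the control was read as WT because the study describes wild-type cells. RNA was pulled down with an ac4C antibody, rRNA was removed, and the submitters' processing notes name hg38 and STAR 2.7.10a without their roles. The peak caller and the difference test are not given in the sources used here. The authors deposited 1 table of peaks with the fold enrichment over input as a ratio and, for the 2 libraries compared, a log2 fold change. Deposited too, and handled as a score, were p-values on the log10 scale for enrichment and for the difference, the latter also as FDR. All these values are the authors' own, and no column belongs to a single library.

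Starts were read as counted from 0, since 3 of the 7 peaks then start exactly where RefSeq places their gene in GRCh38.p14, against 0 otherwise. All 14 mitochondrial genes of the table were matched there. Counts, medians and positions were computed in Python 3.11.15 with pandas 2.3.3, numpy 2.4.6 and scipy 1.17.1, and figures with matplotlib 3.10.9. The calls were run on simulated peaks with planted changes, which checks the code and not the calls in these data. The members and lists were chosen with earlier results of these data known. Named genes were all members, the extremes among the other mitochondrial rows, and every gene of the nuclear lists with a listed peak. MT-ND2 and MT-ND5 are no such extremes and were named in addition for values outside the range of the 7. Alternatives changed the p, the size, the peaks counted per gene, the overlapping peaks and the summary. No sequence is printed, and MT-CO2, MTCO1P12, MTCO2P12, MTATP8P1 and MTCO3P12 were named after their lack of a listed peak was seen.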

Additional observations from a re-analysis of the deposited data

How the results depend on the processing

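Of 40 alternatives, 31 left the direction unchanged and the value within 1.5 times. These include all settings for the number of higher peaks, which had to stay at 0 because all 7 values were under 0. For the number of lower peaks, sign alone, 1 peak per gene and leaving out overlapping peaks could likewise only return every peak counted. Leaving out overlapping peaks could not move the median of the other mitochondrial peaks, since none of these overlaps a peak of the 7. Such settings say nothing on how stable the results are. The number of lower peaks, 7, became 4 with an absolute log2 fold change of at least 0.2 and 0 with at least 0.5, as a stricter size passes fewer peaks. A difference p under 0.01 left 5 lower peaks, without the upstream MT-CO1 and the downstream MT-CYB peak. The deposited log10 p of that MT-CO1 peak is -2, which equals the limit, so its loss rests on rounding. Leaving out the overlapping MT-ATP8 and MT-ATP6 peaks moved the median of the 7 from -0.25 to -0.10, since these were the lowest values of the set, and reversed the difference between this median and that of the other mitochondrial peaks from -0.02 to 0.13. That difference was -0.069 with 1 peak per gene by highest enrichment, -0.003 with 1 peak per gene by smallest p, -0.013 with means, -0.0098 with means weighted by peak length and -0.012 against complex I peaks alone. No paired analysis was possible because neither WT nor NAT10-KO has a replicate, and for the same reason no library could be left out. With 1 library per condition and an unknown depth, no interval can be given for a single peak.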
